A study of Mus musculus with 6 samples.

Results

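The genes described here are 9 genes of osteoclast differentiation and cell fusion, *Tnfrsf11a*, *Nfatc1*, *Acp5*, *Dcstamp*, *Ocstamp*, *Oscar*, *Calcr*, *Clcn7* and *Ostm1*, picked by symbol among 24972 rows of a gene table. RNA sequencing measured their transcripts in macrophages derived from the bone marrow of Lcn10-KO mice, which lack the secreted lipocalin *Lcn10*, and of wild-type (WT) mice, with 3 libraries per genotype. Monocytes from marrow had been grown into macrophages in medium with L929 cell supernatant, a source of macrophage colony-stimulating factor (M-CSF), and all cells of both genotypes were untreated. The labels name no RANK ligand among the culture additions, and they give neither the ages nor the strain of the mice, the kind of *Lcn10* allele, or whether each library is a mouse of its own. The p-values therefore measure only the spread between libraries, which may be technical.

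Osteoclasts are the bone-resorbing cells of the macrophage lineage. M-CSF keeps their precursors alive, and RANK ligand, acting through its receptor RANK, turns on the transcription factor NFATc1, which in turn drives genes for cell fusion and for the acid and enzymes that dissolve bone. Cultured macrophages that receive M-CSF without RANK ligand are commonly used as osteoclast precursors and do not normally go on to become multinucleated osteoclasts.

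All 9 genes had a row in the table, and 7 passed the filter of at least 10 normalized counts in at least 3 libraries. Normalized counts here are the deposited values, taken as read counts that the authors scaled to make libraries comparable. *Oscar* and *Calcr* did not pass. Of the 7 genes tested, 1 was lower in Lcn10-KO, *Tnfrsf11a*, and 6 missed the threshold (limma, Benjamini-Hochberg adjusted p under 0.05 over 12091 genes). Over all genes tested the same threshold was passed by 9.84%, with 4.7% higher and 5.14% lower in Lcn10-KO, so 1 call among 7 genes is close to that background. The median log2 fold change was −0.06 over the 7 genes and −0.0011 over all genes tested.

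The libraries held about 19300000, 24400000 and 19800000 reads in Lcn10-KO and 18000000, 18000000 and 24800000 in WT, estimated from the value of a single read. *Lcn10* itself was listed at 0 in all 6 libraries, so it does not check the genotype labels. On the first principal component (39.95% of the variance) the Lcn10-KO libraries lay at 9.92 to 15.3, WT replicates 2 and 3 at −4.64 and −9.29, and WT replicate 1 apart at −26.25. WT replicate 2 stood apart on the second, at −20.4 against −3.65 to 11.5 in the other 5 libraries.

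The macrophage label was checked first. The 8 macrophage markers looked at (*Adgre1*, *Cd68*, *Itgam*, *Csf1r*, *Fcgr1*, *Mertk*, *Cd14* and *Lyz2*) summed to between 293764 and 308309 normalized counts in Lcn10-KO and between 280139 and 290881 in WT, most of it from the lysozyme gene *Lyz2*. Of the 8, 2 were higher in Lcn10-KO, *Adgre1* and *Mertk* (log2 fold changes of 0.26 and 0.44, limma adjusted p of 0.0338 and 0.00128), and 2 were lower, *Csf1r* and *Cd14* (−0.23 and −0.17, adjusted p of 0.0129 and 0.0449). The 9 markers of mature osteoclasts summed to between 6771 and 7645 in Lcn10-KO and between 3619 and 5118 in WT, and most of that sum was *Atp6v0d2*, a subunit of the vacuolar proton pump. Among the other markers, the bone proteases *Ctsk* and *Mmp9* lay at 183 to 243 and 112 to 153 normalized counts in Lcn10-KO, and at 154 to 176 and 47.7 to 101 in WT. *Calcr*, the calcitonin receptor that marks mature osteoclasts, was listed at 0 throughout. *Itgb3* lay at 271 to 319 in Lcn10-KO and 229.9 to 291 in WT, and *Dcstamp* at 259.9 to 343 in Lcn10-KO and 238 to 437 in WT. The libraries thus carry the profile of macrophages, with little or no RNA of some osteoclast markers, such as *Calcr*, and more of others, such as *Atp6v0d2*.

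Markers of osteoblasts and stromal cells, which make RANK ligand in bone, were also present. The 9 genes of that list summed to between 3656 and 4084 normalized counts in Lcn10-KO and between 2919 and 4441 in WT, carried mainly by the collagen genes *Col1a1* and *Col1a2*, and 0 of the 5 tested passed the threshold. The osteoblast gene *Bglap* was listed at 0 in 5 of the 6 libraries, and *Alpl*, *Sp7* and *Lepr* did not exceed 17.0 in any. *Runx2* lay at 134 to 157 in Lcn10-KO and 164 to 187 in WT, and missed the threshold (limma adjusted p = 0.150). *Cxcl12* lay at 213 to 240.3 in Lcn10-KO and 157 to 276 in WT, and *Pdgfrb* at 183 to 201 in Lcn10-KO and 152 to 326 in WT. The 5 endothelial markers summed to between 307 and 699 in Lcn10-KO and between 318 and 440.03 in WT, with the highest value in Lcn10-KO replicate 2. The 6 dendritic cell markers summed to between 1798 and 2309 in Lcn10-KO and between 1341 and 2035 in WT, almost all from *Itgax*, which macrophages also express. The 8 neutrophil markers lay between 402 and 440.2 in Lcn10-KO and between 333 and 462 in WT, with *Ly6g* at 0. Markers of B cells, T cells and red cells did not exceed 6.25 in any library, with *Hbb-bs* and *Alas2* at 0. The 4 mast cell and basophil markers summed to 57.5 to 64.5 in Lcn10-KO and 34.2 to 61.3 in WT, and the 4 megakaryocyte markers to 128 to 175 in Lcn10-KO and 127 to 181 in WT. In bulk RNA, fewer cells of a type and less RNA per cell cannot be told apart. The part of these cells in the results was not tested.

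*Tnfrsf11a* codes for RANK, the receptor through which osteoclast differentiation starts. It had 3032, 3045 and 2731 normalized counts in Lcn10-KO replicates 1 to 3, against 3532, 3707 and 3256 in WT replicates 1 to 3. All 3 Lcn10-KO libraries lay below all 3 WT libraries, as was the case for 16.9% of the genes tested. The means were 2936 ± 178 in Lcn10-KO and 3498 ± 228 in WT (SD, n = 3 each), so Lcn10-KO macrophages held 0.839 times the WT level. The log2 fold change was −0.25 ± 0.06 (SE), with a 95% interval from −0.38 to −0.13 (limma adjusted p = 0.0201). In absolute size it exceeded 41.5% of the changes called over all genes, whose median size was 0.27 on the log2 scale. Without WT replicate 1 the log2 fold change was −0.24 (adjusted p = 0.0272) and without WT replicate 2 it was −0.21 (adjusted p = 0.0337). The call was lost without Lcn10-KO replicate 2 or 3 (adjusted p of 0.0648 and 0.0977) and in limma without the mean-variance trend (adjusted p = 0.141).

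**Figure D1:**
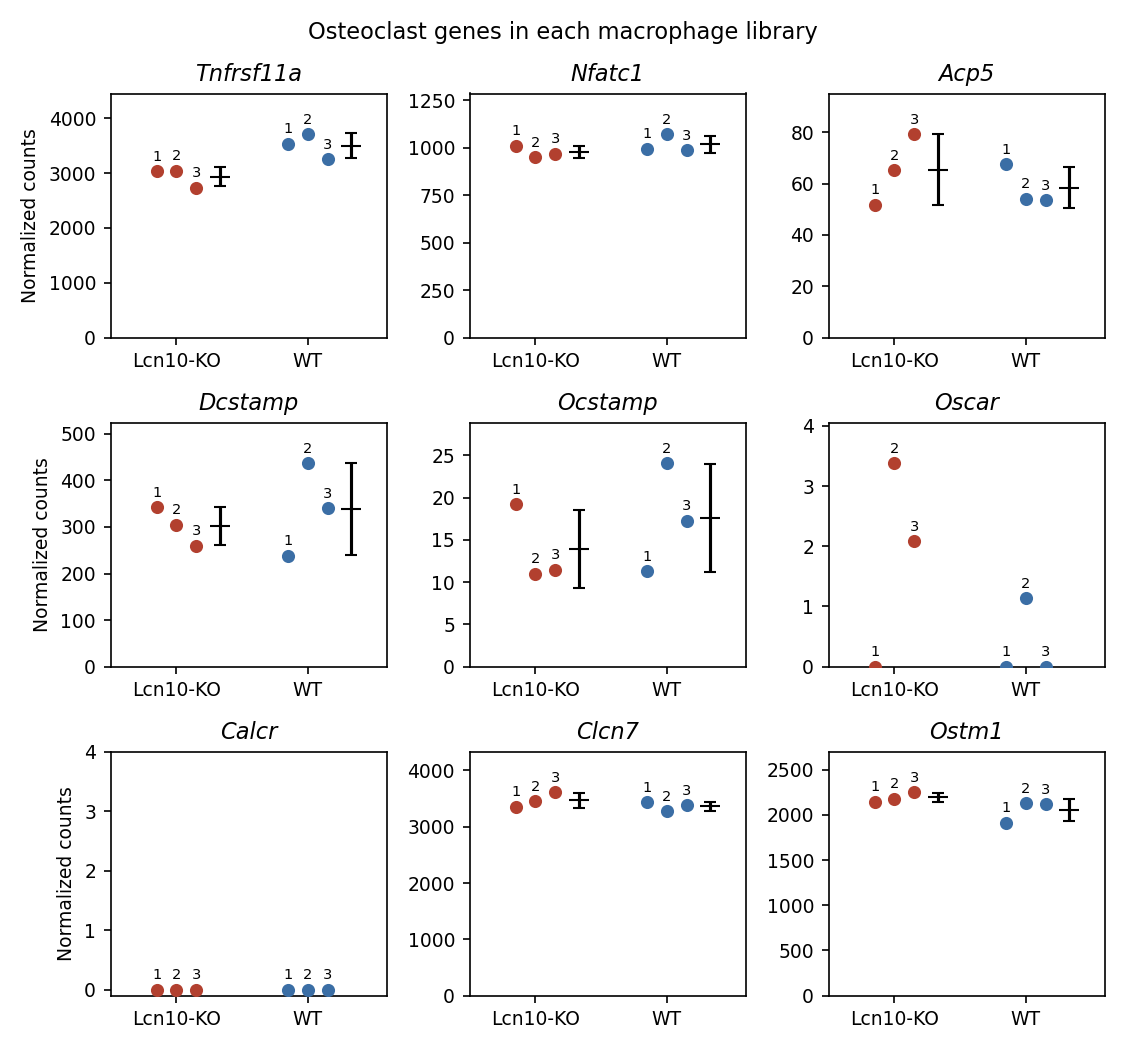
Normalized counts (vertical axes, linear) of the 9 osteoclast genes in each library, with Lcn10-KO in red and WT in blue, replicate numbers beside the points, and mean ± SD as black bars for the 7 genes that passed the filter. *Tnfrsf11a* lies between 2731 and 3045 in Lcn10-KO and between 3256 and 3707 in WT, while *Nfatc1*, *Acp5*, *Dcstamp*, *Ocstamp* and *Clcn7* overlap between the genotypes.

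*Tnfrsf11a* (ENSMUSG00000026321.7) lies on chromosome 1, 105780718 to 105847981, plus strand, in GRCm38, the assembly that the mm10 build of the authors' processing names. The sequence upstream of its start is shown because it is the gene of the set that differed. It is the stretch chr1:105780473-105780717 of the plus strand (RefSeq, GRCm38.p6), 245 bases ending 6 bases before the RefSeq start, with matches to a broad form of the NF-κB motif (GGG, any 5 bases, CC) in capitals. The sequence upstream of *Clcn7* follows, chr17:25133141-25133385, plus strand, because it alone among 10 windows of 6 of these genes held the E-box CACGTG, the core of the motif of MITF and TFE factors, which act in osteoclasts and on lysosomal genes.
Tnfrsf11a: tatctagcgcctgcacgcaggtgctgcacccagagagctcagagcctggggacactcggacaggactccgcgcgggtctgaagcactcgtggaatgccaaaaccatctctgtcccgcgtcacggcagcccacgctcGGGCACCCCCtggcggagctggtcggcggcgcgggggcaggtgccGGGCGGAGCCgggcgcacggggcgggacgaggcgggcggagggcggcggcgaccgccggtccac
Clcn7: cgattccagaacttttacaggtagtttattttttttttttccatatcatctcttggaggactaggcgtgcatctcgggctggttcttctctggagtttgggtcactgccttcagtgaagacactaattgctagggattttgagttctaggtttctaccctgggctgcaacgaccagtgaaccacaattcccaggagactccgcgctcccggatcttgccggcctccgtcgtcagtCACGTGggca
The *Tnfrsf11a* window held 2 matches to the NF-κB form and none to CACGTG, to TGANTCA (AP-1), to GAGGAA (PU.1) or to GGAAA (NFAT), all searched on both strands. GAGGAA followed by A also holds GGAAA, so those motifs can overlap. Windows of the same length held the NF-κB form in 44.9% of 32851 promoters in the RefSeq table, CACGTG in 5.85%, TGANTCA in 6.66%, GAGGAA in 22.7% and GGAAA in 54.8%. In the table, 6 of the 9 genes had an entry. These matches describe letters only and show no binding.

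*Nfatc1*, the master transcription factor downstream of RANK, showed no detectable difference. It had 1011, 951 and 968 normalized counts in Lcn10-KO replicates 1 to 3 and 996, 1071 and 986 in WT replicates 1 to 3. The ranges overlap, with means of 977 ± 30.9 in Lcn10-KO and 1018 ± 46.6 in WT (SD, n = 3 each). The SD in WT, though not that in Lcn10-KO, exceeded the gap between the means. The log2 fold change was −0.06 ± 0.05 (SE), and its 95% interval of −0.18 to 0.06 leaves room only for small changes (adjusted p = 0.544).

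*Dcstamp* and *Ocstamp* code for multi-pass membrane proteins needed for the fusion of precursors into multinucleated cells, both of them induced by NFATc1. *Dcstamp* had 343, 305 and 259.9 normalized counts in Lcn10-KO replicates 1 to 3, against 238, 437 and 340.4 in WT replicates 1 to 3. *Ocstamp* was far scarcer, with 19.2, 11.0 and 11.5 in the Lcn10-KO libraries in the same order and 11.3, 24.1 and 17.3 in WT replicates 1 to 3. For both genes the lowest and the highest WT library bracketed most or all of the Lcn10-KO values. The means were 302 ± 41.5 in Lcn10-KO and 339 ± 99.3 in WT for *Dcstamp*, and 13.9 ± 4.61 in Lcn10-KO and 17.5 ± 6.38 in WT for *Ocstamp* (SD, n = 3 each). Neither passed the threshold, with log2 fold changes of −0.13 (95% interval −0.71 to 0.45, adjusted p = 0.789) and −0.30 (−1.08 to 0.48, adjusted p = 0.649). Intervals this wide would not show a moderate change in either direction.

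The spread of *Dcstamp* between WT libraries was much larger than counting error. Its coefficient of variation was 13.7% in Lcn10-KO and 29.3% in WT, where counting alone would give 5.56%. The library that stood apart on the first component, WT replicate 1, was the lowest of all 6 for *Dcstamp*, and WT replicate 2, apart on the second, was the highest for both genes. Without WT replicate 1 the log2 fold change of *Dcstamp* was −0.36 (adjusted p = 0.127), and without WT replicate 2 it was 0.08 (adjusted p = 0.817), so its sign rests on which WT library is kept.

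**Figure D2:**
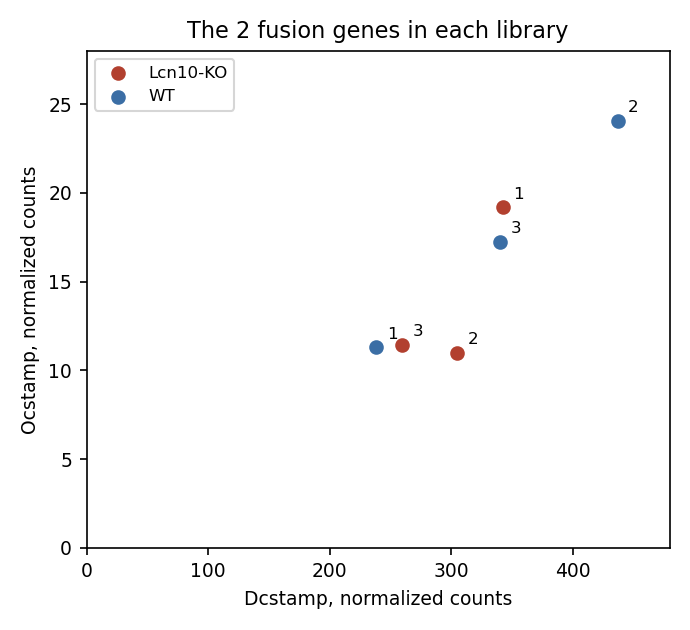
Normalized counts of *Dcstamp* (horizontal axis) and *Ocstamp* (vertical axis) in the 3 Lcn10-KO (red) and 3 WT (blue) libraries, each point a library with its replicate number. Libraries with more *Dcstamp* tended to hold more *Ocstamp*, with WT replicate 2 highest in both at 437 and 24.1, and the genotypes are intermixed.

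Across the 6 libraries *Dcstamp* and *Ocstamp* were high and low together on the log2 scale (Pearson r = 0.907, exact permutation p = 0.0153; Spearman rho = 0.829, exact permutation p = 0.0583; two-sided). Without the 2 libraries farthest from the median of *Dcstamp*, WT replicates 1 and 2, r was 0.827 over 4 libraries. Among the 21 pairs of the 7 genes tested, 0 passed an adjusted p under 0.05 by either measure, this pair having adjusted p of 0.136 and 0.245. *Acp5* and *Clcn7* gave the smallest Pearson p of the 21 pairs (r = 0.914, p = 0.0125, adjusted p = 0.136; rho = 0.771, p = 0.103, adjusted p = 0.270, exact permutation). Without Lcn10-KO replicates 1 and 3, the farthest from the median of *Acp5*, r was 0.807.

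*Acp5*, the tartrate-resistant acid phosphatase that serves as the classical stain for osteoclasts, was low in all libraries. It had 51.8, 65.2 and 79.3 normalized counts in Lcn10-KO replicates 1 to 3, against 67.5, 54.1 and 53.5 in WT replicates 1 to 3. The groups overlap, with both the lowest and the highest value in Lcn10-KO. The means were 65.4 ± 13.7 in Lcn10-KO and 58.4 ± 7.94 in WT (SD, n = 3 each), with a log2 fold change of 0.15 (95% interval −0.27 to 0.57, adjusted p = 0.676).

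*Oscar* and *Calcr* are surface receptors of differentiated osteoclasts, the first a costimulatory partner of RANK that signals through an ITAM adaptor. *Oscar* was listed at 0, 3.38 and 2.08 normalized counts in Lcn10-KO replicates 1 to 3, and at 0, 1.14 and 0 in WT replicates 1 to 3. With the value of 3 reads at 2.47 to 3.42 depending on the library, these are a handful of reads at most, and a difference was not detectable at this depth. *Calcr* was listed at 0 in every library of both genotypes, where a count of 0 allows up to 3 reads. Such floors cover counting error only.

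*Clcn7* and *Ostm1* code for the chloride-proton exchanger ClC-7 of lysosomes and of the osteoclast's resorbing membrane, and for the beta subunit that stabilizes it. Loss of either causes osteopetrosis in mice. *Clcn7* had 3352, 3449 and 3613 normalized counts in Lcn10-KO replicates 1 to 3, against 3434, 3279 and 3379 in WT replicates 1 to 3, and the groups overlap. The means were 3471 ± 132 in Lcn10-KO and 3364 ± 78.1 in WT (SD, n = 3 each), and the log2 fold change was 0.04 (95% interval −0.05 to 0.14, adjusted p = 0.567).

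*Ostm1* had 2147, 2181 and 2252 normalized counts in Lcn10-KO replicates 1 to 3, against 1916, 2133 and 2119 in WT replicates 1 to 3. All 3 Lcn10-KO libraries lay above all 3 WT libraries, though by a narrow gap, and 15.5% of the genes tested were separated in that direction. The means were 2193 ± 53.4 in Lcn10-KO and 2056 ± 122 in WT (SD, n = 3 each). The log2 fold change of 0.09 ± 0.05 (SE) did not pass the threshold (95% interval −0.01 to 0.20, adjusted p = 0.259), and it was 0.04 without WT replicate 1, the lowest library.

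**Figure D3:**
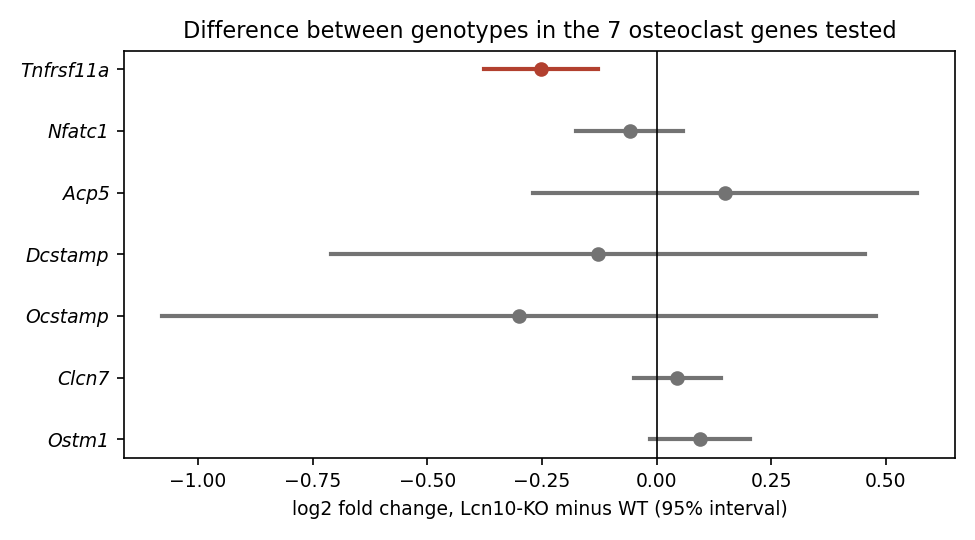
Log2 fold change, Lcn10-KO minus WT (horizontal axis), of the 7 osteoclast genes tested, with points for the estimate and lines for the 95% interval from limma. The interval of *Tnfrsf11a* (red) runs from −0.38 to −0.13, those of the other 6 genes (grey) include 0, and *Ocstamp* has the widest, from −1.08 to 0.48.

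Set side by side per kilobase of the longest coding transcript, the level over all 6 libraries was highest for *Clcn7*, at a mean of 807 normalized counts per kilobase (774 to 853), followed by *Ostm1* at 707 (637 to 749) and *Tnfrsf11a* at 639.95 (543 to 737). The ranges of *Ostm1* and *Tnfrsf11a* overlap, whereas the whole range of *Clcn7* lies above that of *Ostm1*. *Nfatc1* at 208 (198 to 223) and *Dcstamp* at 161 (119 to 219) also overlap each other. *Acp5* followed at 42.8 (35.8 to 54.8) and *Ocstamp* at 4.30 (3.01 to 6.58), each clear of its neighbours. The receptor, the transcription factor and the lysosomal transporter were thus well expressed in these macrophages of both genotypes. The fusion gene *Dcstamp* lay just under *Nfatc1* with an overlapping range, while *Acp5*, *Ocstamp*, *Oscar* and *Calcr* were scarce or listed at 0. In the annotation *Nfatc1*, *Acp5* and *Ostm1* overlap noncoding genes on the opposite strand, and without stated strand use their reads cannot be told apart.

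By the root mean square difference of the centred log2 values over the 6 libraries, the 3 genes closest to *Tnfrsf11a* in pattern were *AU022252* (0.014), *Pdgfb* (0.023), a chain of platelet-derived growth factor, and *Map4k3* (0.029), a kinase. *Pdgfb* had 1319, 1342.5 and 1169 normalized counts in Lcn10-KO replicates 1 to 3 and 1588, 1635 and 1412 in WT replicates 1 to 3. Like *Tnfrsf11a*, it was lowest in replicate 3 of each genotype. *Pdgfb* and *Map4k3* passed the threshold with log2 fold changes of −0.27 and −0.22 (adjusted p of 0.0291 and 0.0212), and *AU022252*, with fewer reads, had −0.26 and an adjusted p of 0.213. Because the 3 genes were picked for likeness over these same libraries, their shared direction and size follow from the choice.

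The rest of the pathway was looked at in 7 lists by role, with 135 genes of which 127 were tested. Of these, 28 (22.05%) passed the threshold, 10 higher and 18 lower, beside 9.84% of all genes tested, and 7 of the 28 were more than 1.5-fold apart. The lists were chosen with results of these data known, so this share and the counts per list below are descriptions. Over all genes tested 4.7% were higher and 5.14% lower. *Blnk*, *Fosl2*, *Cx3cr1* and *Itgav* kept their calls when any 1 of the 6 libraries was left out, and the other 24 lost theirs in at least 1 such fit, most often without Lcn10-KO replicate 2 or 3. In limma without the mean-variance trend 0 of the 28 passed.

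**Figure D4:**
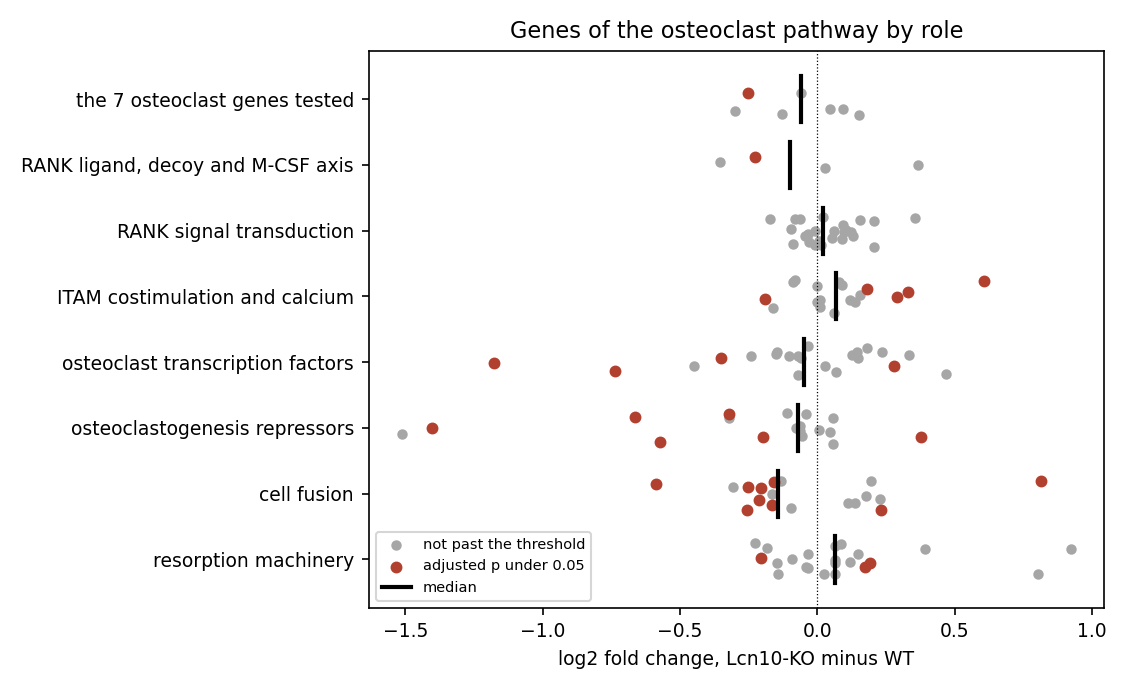
Log2 fold change, Lcn10-KO minus WT (horizontal axis), of each tested gene of the osteoclast pathway, in rows by role, with red points for adjusted p under 0.05, grey points for the rest and black bars for the list median. The row of cell fusion genes has the lowest median, −0.14, with 7 genes lower and 2 higher, and the row of RANK signal transduction has no red point.

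Of the ligands and receptors around RANK, *Csf1r*, the M-CSF receptor that with RANK defines an osteoclast precursor, was the 1 gene past the threshold among 4 tested, where the median log2 fold change was −0.10. It had 32723, 31104 and 30782 normalized counts in Lcn10-KO replicates 1 to 3, against 39204, 36591 and 35126 in WT replicates 1 to 3. The groups did not overlap, as was the case in that direction for 16.9% of the genes tested (log2 fold change −0.23 ± 0.05 (SE), limma adjusted p = 0.0129). *Csf1*, which codes for M-CSF, and *Tnfrsf11b*, for the decoy receptor osteoprotegerin, had log2 fold changes of −0.35 and 0.03 (adjusted p of 0.442 and 0.964). *Tnfsf11*, the gene for RANK ligand, was too low for the filter. It was listed at 1.06, 2.52 and 1.04 normalized counts in Lcn10-KO replicates 1 to 3, each at or under the value of 3 reads, and at 10.4, 4.55 and 7.43 in WT replicates 1 to 3. The groups do not overlap, and 16.9% of the genes that passed the filter were separated in that direction. With no filter on low values its limma adjusted p was 0.0303. At a few reads per library its fold change is not given, and no difference is read from these values. *Tnfsf11* was singled out after its values were seen.

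None of the 25 genes of RANK signal transduction, which carry the signal to NF-κB, MAP kinases and PI3 kinase, passed the threshold by limma, with a median log2 fold change of 0.02. An unadjusted p under 0.05 was reached by 3 of the 25, beside 26.3% of all genes tested (3180 of 12091). The 3 were *Traf3*, a brake on noncanonical NF-κB signalling, with 885, 847 and 903 normalized counts in Lcn10-KO replicates 1 to 3 and 1011, 997 and 963 in WT replicates 1 to 3 (log2 fold change −0.17, adjusted p = 0.0528), *Gab2*, an adaptor of RANK (0.13, adjusted p = 0.0908), and *Relb*, a noncanonical NF-κB subunit (0.21, adjusted p = 0.1101). For *Traf6*, the main adaptor of RANK, it was −0.03 (adjusted p = 0.793).

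The ITAM pathway provides the calcium signal that activates NFATc1 alongside RANK. Of 18 genes tested 4 were higher and 1 lower, with a median log2 fold change of 0.07. *Blnk*, an adaptor between Syk and phospholipase C gamma, rose to 2312, 2298 and 2432 normalized counts in Lcn10-KO replicates 1 to 3, against 1742, 2004 and 1861 in WT replicates 1 to 3 (log2 fold change 0.33 ± 0.05 (SE), adjusted p = 0.00478). *Fcgr4*, an activating Fc receptor, rose by 0.61 on the log2 scale, and *Tyrobp*, the ITAM adaptor DAP12, by 0.18, to 16494 ± 722 in Lcn10-KO against 14559.5 ± 925 in WT (SD, n = 3 each). *Plcg2*, the phospholipase downstream of *Blnk*, went the other way, at 2977 ± 67.1 in Lcn10-KO and 3396 ± 102 in WT (log2 fold change −0.19, adjusted p = 0.0182). *Pira2* rose by 0.29 on the log2 scale, yet paired immunoglobulin-like receptors have near-identical copies and their own values are uncertain. The 7 Pira and Pirb rows together summed to 7867, 8444 and 8388 in Lcn10-KO replicates 1 to 3, against 5707, 6949 and 6582 in WT replicates 1 to 3, or 1.28 times the WT level in Lcn10-KO.

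Among 22 transcription factors tested besides *Nfatc1*, 3 were lower and 1 higher, with a median log2 fold change of −0.05. The 3 lower ones were all Fos family members, partners in AP-1. *Fosb* had 21.0, 14.2 and 19.2 normalized counts in Lcn10-KO replicates 1 to 3, against 52.6, 32.7 and 42.3 in WT replicates 1 to 3 (log2 fold change −1.18 ± 0.26 (SE), adjusted p = 0.0180). *Fosl2* fell to 1058 ± 32.4 in Lcn10-KO, against 1353 ± 90.7 in WT (log2 fold change −0.35, adjusted p = 0.00459), and *Fosl1*, which overlaps *Ccdc85b* on the opposite strand, by 0.74 on the log2 scale (adjusted p = 0.0398). *Fos*, which osteoclast formation requires, differed by −0.24 on the log2 scale and did not pass (adjusted p = 0.152). *Tfeb*, a regulator of lysosomal genes, was the higher one, at 1090.03 ± 39.1 in Lcn10-KO and 901 ± 91.1 in WT (log2 fold change 0.28, adjusted p = 0.0259). *Mitf* and *Spi1*, which codes for PU.1, had 0.15 and 0.03 (adjusted p of 0.330 and 0.743).

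Of 18 genes placed in a list of restraints on osteoclast formation, 5 were lower and 1 higher, with a median log2 fold change of −0.07. Membership does not mean that each gene, *Cx3cr1* included, is an established restraint. *Cx3cr1*, the fractalkine receptor of monocytes and macrophages, had the smallest p of the 18. It had 1295, 1112 and 1096 normalized counts in Lcn10-KO replicates 1 to 3, against 1746, 1912 and 1881 in WT replicates 1 to 3 (log2 fold change −0.66 ± 0.07 (SE), adjusted p = 0.000222), and it overlaps other genes in the annotation. *Id3*, which blocks DNA binding of helix-loop-helix factors, fell by 1.40 on the log2 scale, *Nr4a1*, an orphan nuclear receptor, by 0.57, *Dusp1*, a MAP kinase phosphatase, by 0.32 and *Bcl6*, a repressor of *Nfatc1*, by 0.20. When all genes were kept whatever their level, *Id3* no longer passed (adjusted p = 0.0637). *Id1* and *Id2*, in the same list, had log2 fold changes of −1.51 and −0.32 and did not pass (limma adjusted p of 0.0616 and 0.259). *Pirb*, an inhibitory receptor of the family with near-identical copies named above, rose by 0.38. *Irf8*, a transcriptional repressor of the osteoclast fate, had 0.01 on the log2 scale and did not pass (adjusted p = 0.958).

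In the list of cell fusion genes 7 of 18 tested were lower and 2 higher, beside 5.14% and 4.7% of all genes tested. The median log2 fold change was −0.14. Among the fusion genes called, only *Itgav* kept its call whichever library was left out. The list does not separate genes that favour fusion from genes that limit it or have other roles. *Atp6v0d2*, the V-ATPase subunit that osteoclast fusion also needs, had 5690.2, 6180 and 6676 normalized counts in Lcn10-KO replicates 1 to 3, against 2857, 4056 and 3733 in WT replicates 1 to 3. All Lcn10-KO libraries lay above all WT libraries, as was the case for 15.5% of the genes tested. The log2 fold change was 0.81 ± 0.15 (SE, limma adjusted p = 0.0340). The gene no longer passed when all genes were kept whatever their level (adjusted p = 0.0570). *P2rx7*, an ATP-gated channel, rose by 0.23 on the log2 scale, and it too no longer passed in that fit (adjusted p = 0.0502).

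The lower genes of the fusion list were led by *Itgav*, the integrin alpha v chain that pairs with beta 3 on osteoclasts. It had 5344, 4521 and 4866 normalized counts in Lcn10-KO replicates 1 to 3, against 7766, 7432 and 6936 in WT replicates 1 to 3 (log2 fold change −0.59 ± 0.06 (SE), adjusted p = 0.000766). Its partner *Itgb3* had 296 ± 24.2 in Lcn10-KO and 254 ± 32.65 in WT (log2 fold change 0.23, adjusted p = 0.185). *Adam8*, a membrane metalloprotease, fell by 0.25 on the log2 scale, *Tmem64* by 0.25, *Slc1a5*, a glutamine transporter, by 0.21, *Cd81*, a tetraspanin, by 0.21, *Sbno2* by 0.17 and *Cd44*, a hyaluronan receptor, by 0.16. *Cd81*, *Sbno2* and the resorption gene *Slc37a2* lost their calls both under quantile normalization and when all genes were kept whatever their level.

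Of 22 tested genes of the resorption machinery 2 were higher and 1 lower, with a median log2 fold change of 0.06. *Tcirg1*, the a3 subunit of the proton pump of the resorbing membrane, rose to 9604 ± 209 in Lcn10-KO, against 8522 ± 151 in WT (log2 fold change 0.17, adjusted p = 0.0191), and *Atp6v1b2*, a subunit of the same pump, rose by 0.19. *Slc37a2*, a sugar phosphate transporter of osteoclasts, fell by 0.20 on the log2 scale. *Ctsk*, cathepsin K, had 243, 215 and 183 normalized counts in Lcn10-KO replicates 1 to 3, against 156, 154 and 176 in WT replicates 1 to 3. *Mmp9*, gelatinase B, had 153, 112 and 115 in Lcn10-KO replicates 1 to 3, against 58.9, 101 and 47.7 in WT replicates 1 to 3. For both proteases the groups did not overlap, as was the case with Lcn10-KO above for 15.5% of the genes tested. Their log2 fold changes were 0.39 and 0.92, and both missed the threshold (limma adjusted p of 0.0528 each). *Car2*, carbonic anhydrase II, which supplies the protons in osteoclasts, did not pass the filter, with 1.86, 5.20 and 3.20 in Lcn10-KO replicates 1 to 3, against 1.17, 1.17 and 1.69 in WT replicates 1 to 3.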

How the data were processed

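The submitters' processing notes name the build mm10 and, without role or order, DESeq2, Salmon 0.11.2, STAR 2.6.1a and bcl2fastq. Annotation and strand use were not given in the sources used here. Values as deposited are a signal, taken as read counts that the authors scaled: not whole, never negative, with totals of 20476668 to 20636260 per library. Between 90.7% and 92.6% of low values were whole multiples of a single read within 0.1 reads, so whole reads were not recovered and no count test was run. Columns were matched to samples by library name. Genes with at least 10 in at least 3 libraries entered limma 3.58.1 (R 4.3.3) on log2(value + 1), which understates the change of low genes, with genotype as the only term, mean-variance trend and robust estimation, and Benjamini-Hochberg adjustment over all genes. Named were the 9 genes, list genes past the threshold (otherwise the 3 smallest p), and the 3 genes nearest in pattern to each called gene; others were chosen after their values were seen. The 9 genes and all lists were chosen with earlier results of these data known. Positions and lengths came from GENCODE M21, promoters from RefSeq GRCm38.p6. Alternatives were quantile normalization, median ratio rescaling, no trend, other filters and pseudocounts, a replicate block, and each library left out. Figures used matplotlib 3.10.9.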

Additional observations from a re-analysis of the deposited data

How the results depend on the processing

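Of the 14 alternatives, 8 gave the full set of libraries another normalization, variance model, filter, pseudocount or a block, and 6 left out a library each. Without the mean-variance trend, 14 genes differed in all (1190 with it), 0 of the 9 osteoclast genes and 0 of the 127 tested genes of the 7 lists (1 and 28 with it); the cause was not tested. With a library left out, the genes that differed numbered 173 (without Lcn10-KO replicate 3) to 1652 (without WT replicate 2), with 567 and 206 without Lcn10-KO replicate 1 or 2. The osteoclast genes numbered 0 (without Lcn10-KO replicate 2 or 3) to 1, and the list genes 4 (without Lcn10-KO replicate 2 or 3) to 37, with 16 without Lcn10-KO replicate 1. *Dcstamp*, not called, changed sign without WT replicate 2, its log2 fold change ranging from −0.3588 (without WT replicate 1) to 0.0768. *Tnfrsf11a* stayed lower in all 14, between −0.30 and −0.20. Whether replicate numbers pair the libraries was not settled. Deviations of same-numbered libraries correlated only weakly, at 0.038, 0.073 and 0.014. Each Lcn10-KO library correlated best with the WT library of its own number, whereas WT replicate 3 correlated best with Lcn10-KO replicate 1 (0.026). With a replicate block 1607 genes, 33 list genes and 1 osteoclast gene differed. A difference in *Oscar* or *Calcr* was not detectable at this depth. For *Ocstamp*, counting alone would give a coefficient of variation of 25.3%, where 33.2% was seen in Lcn10-KO and 36.4% in WT. Count tests with DESeq2 or TMM factors, planned for whole counts, were not run.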
